A study of Mus musculus with 8 samples.

Results

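The subject is a set of 10 mouse genes: 8 targets of the transcription factor NRF2 (Hmox1, Nqo1, Gclm, Gclc, Txnrd1, Srxn1, Prdx1 and Sqstm1) and the 2 ferritin genes Ftl1 and Fth1. They were listed by name and matched by symbol, 10 of the 37411 genes in the count table. All 10 had counts, and 8 of them were among the 10000 genes that passed the filter on low counts and were tested. Nqo1 and Srxn1 did not pass it and are given by their counts.

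The series measured RNA by sequencing in CD4+ effector T cells (Teff) that had been transferred into Rag1-/- hosts, which cannot form mature T or B cells, and were recovered 6 weeks later. About 10000 sorted cells went into each library. The transferred cells carried an LMPd retroviral construct with a short hairpin, shMdr1 against the multidrug transporter Mdr1 (Abcb1a) or shCD8 as the control, and the background of all samples was C57BL/6. The lamina propria of small intestine and the spleen were the tissues sampled, and hosts were Asbt+/+ or Asbt-/-. Asbt (Slc10a2) is the transporter that takes up bile acids in the ileum. Each combination of hairpin, tissue and host had 1 library, which makes 8 in all and 4 at each level of a factor. The series title places the question in the response of T cells to intestinal bile acids when Mdr1 is reduced. All groups share the Rag1-/- host and the retroviral construct, no group of untransduced cells was analysed here, and the host still has its own myeloid, erythroid and epithelial cells.

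NRF2, encoded by Nfe2l2, is held in the cytoplasm and degraded through its partner KEAP1 until reactive or electrophilic compounds modify KEAP1. It then enters the nucleus, pairs with a small MAF protein and binds antioxidant response elements, while BACH1 competes for the same sites and is removed by heme. Its targets make glutathione, keep thioredoxin and peroxiredoxins reduced, break down heme and store iron. Ferritin is the shell that stores iron. Both of its chains are also controlled after transcription, through an iron-responsive element in the mRNA that iron regulatory proteins bind when iron is scarce, so mRNA levels do not give protein levels.

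The letters NRF2 is known to read are shown first. In RefSeq promoter windows of 300 bases (250 before and 50 after the gene's start, build GRCm38.p6), the antioxidant response element core TGACNNNGC, searched on both strands, occurred in 12.4% of 32851 windows. Of the 10 genes, 8 had a window, with 11 windows in all, since Txnrd1 had 3 and Fth1 had 2. The core was found in 4 of these 11 windows, from 4 of the 8 genes, each time on the strand opposite to the gene. The core is in capitals below, with its flanks in lower case.
Gclm, chr3:122245413-122245441: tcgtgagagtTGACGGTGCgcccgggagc
Prdx1, chr4:116685456-116685484: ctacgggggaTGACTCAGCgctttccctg
Txnrd1, chr10:82859104-82859132: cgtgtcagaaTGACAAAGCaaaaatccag
Srxn1, chr2:152105542-152105570: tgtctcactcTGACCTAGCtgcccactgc
The match in Prdx1 overlapped an AP-1 site (TGANTCA, both strands). That pattern was present in 7.81% of all windows and in 2 of the 11 windows of the set, those of Prdx1 and Srxn1. These matches are descriptions of the reference sequence. The windows of Nqo1, Sqstm1, Ftl1 and Fth1 held no such letters, which says nothing of elements farther away. Hmox1 and Gclc had no window.

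The libraries held 1685225 to 2767105 counts, and levels are given as CPM, each gene's counts scaled to a common total of gene counts per library. CPM are not scaled to gene length, so they are compared between libraries and not between genes. Mitochondrial genes took 26.8% of the counts of shMdr1 spleen Asbt-/-, and hemoglobin genes took 3.69% there. The mitochondrial share was 17.6% with shCD8 for that tissue and host. With shMdr1 it reached 18.3% among small intestine libraries, in the one from the Asbt+/+ host. It was 6.63 to 8.62% in all remaining libraries. A larger share leaves less of the common total to other genes, which lowers their CPM. Reads were found for 8456 genes in shCD8 small intestine Asbt+/+ and for 11345 to 13184 in each of the other libraries. Of the 4 pairs of libraries alike in tissue and host, 3 had less Abcb1a with shMdr1. In the Asbt+/+ small intestine pair it was not lower. The library labelled shMdr1 had 13.6 CPM from 23 counts and the library labelled shCD8 had 8.69 CPM from 21 counts. So few counts do not give a firm direction. Cd8a, of the CD8 named by the control hairpin, had 0 counts in that shCD8 library and 150 in that shMdr1 library. All 10 T cell markers listed, Cd3e and Cd4 among them, had counts in every library. In such sorted bulk samples, fewer cells of a type and less RNA per cell cannot be told apart.

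Sqstm1 was the 1 gene of the set that passed a test: it rose in small intestine relative to spleen. It encodes p62, the autophagy adaptor that carries ubiquitinated cargo to the autophagosome and binds KEAP1. In small intestine it stood at 358 CPM in shCD8 Asbt+/+, 185 in shMdr1 Asbt+/+, 281 in shCD8 Asbt-/- and 237 in shMdr1 Asbt-/-. In spleen the same order gave 122, 86.2, 119 and 110.3 CPM. Every small intestine library lay above every spleen library. The difference was 2.45-fold (log2 1.29 ± 0.25 SE, adjusted p = 0.048 in edgeR's quasi-likelihood test over 10000 genes), and within the 4 pairs alike in hairpin and host it was between 2.14-fold and 2.93-fold. Of all genes tested, 0.62% passed in either direction and 0.51% as higher in small intestine, against 1 of the 8 tested members. Sqstm1 was the last of the 62 genes in order of p. The call was lost in 12 of 16 alternatives, among them the matched-pair block (adjusted p = 0.0543) and each of the 8 fits without 1 library (adjusted p = 0.0649 to 0.297, edgeR), while the log2 difference stayed between 1.11 and 1.42 in all 16.

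Fth1, the ferritin heavy chain with the ferroxidase activity that loads iron into the shell, also separated by tissue but did not pass. In small intestine it stood at 2769 CPM in shCD8 Asbt+/+, 4439 in shMdr1 Asbt+/+, 2392 in shCD8 Asbt-/- and 4383 in shMdr1 Asbt-/-. In spleen it stood at 1709, 1894, 1679 and 1868 CPM in that order. The 4 spleen libraries lay close together, below all of small intestine, and the small intestine values fell into a lower shCD8 pair and a higher shMdr1 pair. The log2 difference between tissues was 0.95 ± 0.29 (adjusted p = 0.306, edgeR). DESeq2's Wald test, which called 2.57% of all genes, did call it (log2 0.94, adjusted p = 0.0108). Ranges without overlap and higher in small intestine were found for 2 of the 8 tested members, Sqstm1 and Fth1, against 2.83% of all tested genes, and the same 2 were higher there in 4 of 4 pairs, against 7.13%. By TMM-scaled CPM, Txnrd1 and Prdx1 were also higher there in 4 of 4 pairs. No tested member had such ranges in the other direction, against 4.84%.

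Gclm ran the other way in its values. It encodes the modifier subunit of glutamate-cysteine ligase, which makes the catalytic subunit more efficient in glutathione synthesis. Spleen held 23.4 CPM in shCD8 Asbt+/+, 29.8 in shMdr1 Asbt+/+, 24.3 in shCD8 Asbt-/- and 14.8 in shMdr1 Asbt-/-. Small intestine held 0.41 and 0.59 CPM, a single read in each of the shCD8 and shMdr1 Asbt+/+ libraries, and 20.6 and 6.87 CPM in Asbt-/-. It was higher in spleen in 4 of 4 pairs, a pattern shown by 12.4% of all tested genes, although the ranges overlapped. The log2 difference, small intestine minus spleen, was -2.65 ± 1.18 (adjusted p = 0.584, edgeR). Without both small intestine Asbt+/+ libraries it was -0.65 ± 0.59, and over the alternatives it ran from -3.74 to that value.

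Hmox1 encodes heme oxygenase 1, which opens the heme ring and frees iron, biliverdin and carbon monoxide. It had 0 counts in shCD8 Asbt+/+ and 1 in shMdr1 Asbt+/+ of small intestine, 21 in shCD8 Asbt-/- and 0 in shMdr1 Asbt-/-, which is 0, 0.59, 8.84 and 0 CPM. In spleen it had 20, 15, 9 and 6 counts in that order (9.37, 6.67, 4.28 and 3.29 CPM). A count of 0 allows up to 3 counts, which is 1.24 CPM in the small intestine library of shCD8 Asbt+/+ and 1.08 in that of shMdr1 Asbt-/-. All 4 spleen libraries thus had reads, and almost all those of small intestine came from 1 library. Pooled over libraries, 50 counts in spleen against 22 in small intestine gave a ratio of 2.53 (95% exact interval 1.504 to 4.39, which covers counting error only). Set against the Asbt-/- small intestine libraries alone, with 21 counts, the ratio was 1.47 (0.869 to 2.58). The fit gave -2.17 ± 1.82 on the log2 scale, small intestine minus spleen (adjusted p = 0.812, edgeR), and -0.58 ± 1.60 without both small intestine Asbt+/+ libraries. Without shCD8 small intestine Asbt-/-, which held 21 of the 22 small intestine counts, it was -4.94 ± 1.95 (adjusted p = 0.492, edgeR), the other end of its range over the alternatives.

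Markers of host cells differed in level between the libraries of these tissues. The sum of 8 erythroid markers was 39.4 to 110.01 CPM in small intestine and 1090 to 37083 CPM in spleen, and the 9 neutrophil markers summed to 9.76 to 179 and 854 to 8084 CPM. The 13 macrophage and monocyte markers summed to 354 to 739.9 CPM in small intestine and 159 to 494 CPM in spleen. Of these, C1qb stood at 16.0 to 55.0 CPM in small intestine and 1.43 to 8.00 in spleen, C1qa at 0 to 11.8 and 0.476 to 2.67 and Ctss at 116 to 393 and 81.2 to 176. Not all of the 13 ran this way. Adgre1 stood at 0 to 6.73 CPM in small intestine and 0 to 11.11 in spleen, and Spic at 0 to 0.842 and 0 to 4.76. Both thus reached higher values in spleen, with overlap between the tissues, and Lyz2 overlapped as well. Mertk had 0 counts in all 4 small intestine libraries and in both Asbt-/- spleen libraries. The 13 epithelial markers summed to 52.2 to 575 CPM in small intestine and 0 to 188 CPM in spleen, with overlap between the tissues. Klf1 and Slc4a1, which mark erythroid cells, had 0 in every small intestine library. The part of these cells in the levels of Sqstm1, Fth1, Hmox1 and the other genes was not tested.

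The remaining members differed little between tissues. Prdx1, a peroxiredoxin that reduces hydrogen peroxide, stood at 769 to 1064 CPM in small intestine and 515 to 879.8 in spleen (log2 0.41 ± 0.25). Txnrd1, the cytosolic thioredoxin reductase, stood at 34.3 to 62.7 and 28.0 to 44.4 CPM (0.39 ± 0.40). For Ftl1, the ferritin light chain, the log2 difference was 0.23 ± 0.25, and for Gclc, the catalytic subunit of glutamate-cysteine ligase, it was -0.07 ± 0.48. None of these passed (adjusted p = 0.736 to 0.983, edgeR), and each had overlapping ranges. Over the 8 tested members the median log2 difference was 0.31, with 5 above 0 and 3 below, beside a median of -0.17 over all tested genes.

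**Figure D1:**
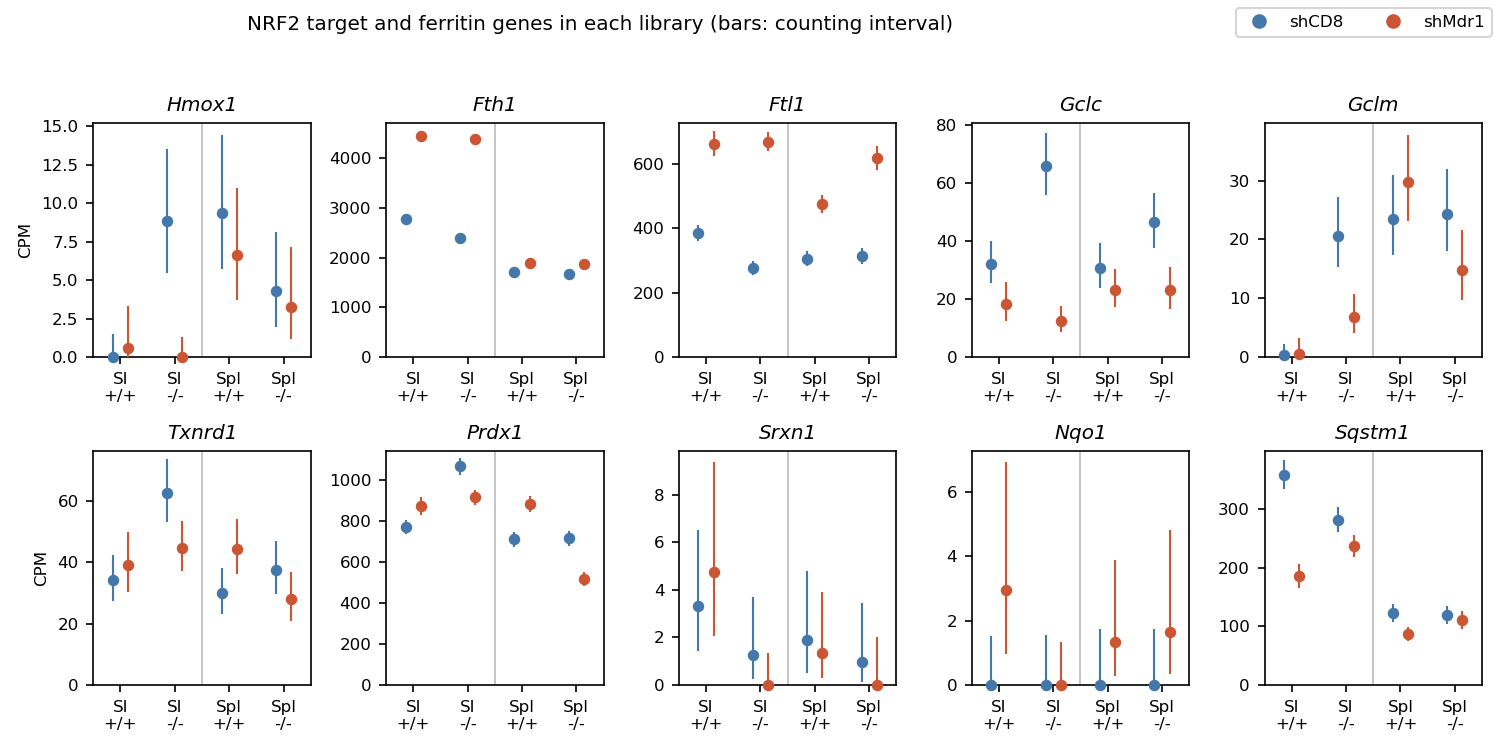
Level of each of the 10 genes in each library in CPM (vertical axes start at 0, each with its own scale), by tissue (SI, small intestine; Spl, spleen) and host (+/+ or -/-, Asbt); points are single libraries, coloured by hairpin, and bars are 95% exact Poisson intervals that cover counting error only. Sqstm1 and Fth1 are higher in all 4 SI libraries than in any spleen library, and Ftl1 is higher and Gclc lower in all 4 shMdr1 libraries than in any shCD8 library.

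Between the hairpins, the 2 genes whose ranges did not overlap were Ftl1, higher with shMdr1, and Gclc, lower with shMdr1. No gene of all 10000 passed in edgeR (0%; 299 had an unadjusted p under 0.05), DESeq2's Wald test called 3 and limma-voom 0, so no member is called changed. In small intestine, Ftl1 had 386 CPM with shCD8 and 663 with shMdr1 where the host was Asbt+/+, and 277 and 669 where it was Asbt-/-. In spleen the Asbt+/+ pair had 306 and 475 CPM, and the Asbt-/- pair 314 and 618. The shMdr1 libraries held 606 ± 90.8 CPM (mean ± SD, n = 4) and the shCD8 libraries 321 ± 46.5. Within pairs the ratio was 1.72, 2.42, 1.55 and 1.97, in the order given. The first of these comes from the pair in which Abcb1a was not lower with shMdr1. The common direction and the ranges without overlap rest on the labels of that pair for Ftl1 and Gclc alike. Without both libraries of that pair the fitted log2 values were 1.09 ± 0.28 for Ftl1, 0.52 ± 0.27 for Fth1 and -1.14 ± 0.42 for Gclc, and the remaining 3 pairs kept their directions. The fitted log2 difference was 1.06 ± 0.25, the fifth smallest unadjusted p (0.00156) of the 10000 and an adjusted p of 0.999 (edgeR). Leaving out single libraries moved it between 0.89 and 1.23, and over all alternatives the adjusted p ran from 0.170 to 1.

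Fth1, the partner chain, was also higher with shMdr1 in 4 of 4 pairs, by 1.60-fold and 1.83-fold in the Asbt+/+ and Asbt-/- pairs of small intestine and by 1.11-fold in both spleen pairs. Its fitted log2 difference was 0.61 ± 0.29 (adjusted p = 0.999, edgeR). A pattern of 4 of 4 pairs higher with shMdr1 was seen for 5.13% of all tested genes, and ranges without overlap in that direction for 0.8%. Split by tissue, Fth1 differed between hairpins by 0.97 ± 0.32 in small intestine and 0.24 ± 0.31 in spleen, and Ftl1 by 1.22 ± 0.32 and 0.90 ± 0.32. The test of the difference between tissues gave 0.73 ± 0.44 for Fth1 and 0.32 ± 0.45 for Ftl1 (adjusted p = 1 for both, edgeR, with 0% of genes called). A tissue-dependent hairpin difference was therefore not shown for either chain.

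The iron-responsive elements of both ferritin mRNAs are shown because they are the part the chains share in the untranslated leader, where iron regulatory proteins bind. They were located in the GENCODE vM21 transcripts on build GRCm38, and the 6 bases of the loop are in capitals.
Fth1, chr19:9982732-9982761 on the forward strand: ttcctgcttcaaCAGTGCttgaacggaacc
Ftl1, chr7:45459778-45459807 on the reverse strand: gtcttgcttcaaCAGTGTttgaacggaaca
The sequences were identical at 26 of 30 bases. Counts of Ftl1, Fth1 and Prdx1 carry an uncertainty of their own, since all have processed copies in the mouse genome and how reads matching several places were counted is not given in the sources used here.

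Gclc ran opposite to Ftl1. In small intestine it had 32.3 CPM with shCD8 and 18.4 with shMdr1 in the Asbt+/+ pair, and 66.1 and 12.6 in the Asbt-/- pair. In spleen these pairs had 30.9 and 23.1 CPM, and 46.7 and 23.1 CPM. All shMdr1 libraries lay below all shCD8 libraries, with 19.3 ± 4.95 against 44.0 ± 16.4 CPM (mean ± SD, n = 4), and the Asbt-/- small intestine pair differed most, by 5.22-fold. The log2 difference was -0.998 ± 0.49 (adjusted p = 0.999, edgeR). Ranges without overlap and lower with shMdr1 were seen for 2.28% of all tested genes.

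**Figure D2:**
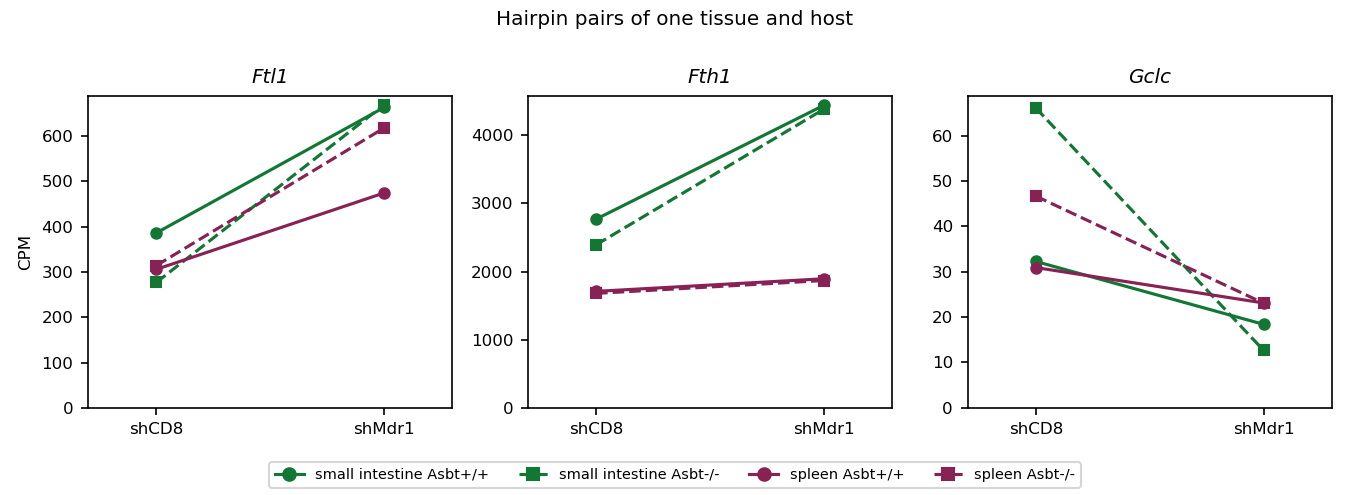
CPM of Ftl1, Fth1 and Gclc (vertical axes from 0) in the shCD8 and shMdr1 library of each pair alike in tissue and host; each line joins 2 single libraries, with colour for tissue and line style for host. All 4 lines slope up for Ftl1 and Fth1 and down for Gclc, and the Fth1 lines are steeper in small intestine (1.60-fold and 1.83-fold) than in spleen (1.11-fold).

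For the other members the hairpin difference was small beside its error. Sqstm1 was lower with shMdr1 in 4 of 4 pairs by total-count CPM, as were 10.7% of tested genes, and in 3 of 4 by CPM scaled with edgeR's TMM factors (log2 -0.31 ± 0.25). Prdx1 (0.10 ± 0.25) and Txnrd1 (0.11 ± 0.40) lay near 0, and Gclm (-0.40 ± 0.99) and Hmox1 (-1.57 ± 1.75) had errors as large as their values. The adjusted p was 0.999 for each in edgeR. Over the 8 members the median was -0.11, with 4 on each side of 0, beside 0.09 over all tested genes. The 13 markers of macrophages and monocytes, cells rich in ferritin and Hmox1, summed to 159 to 494 CPM with shMdr1 and 287 to 739.9 with shCD8. The sum was lower with shMdr1 in 3 of 4 pairs, and the Asbt+/+ spleen pair had 494 CPM with shMdr1 against 406 with shCD8. The erythroid sum ran from 39.4 to 37083 CPM with shMdr1 and from 40.4 to 5579 with shCD8. In small intestine shMdr1 and shCD8 had 81.9 and 110 CPM in Asbt+/+ and 39.4 and 40.4 in Asbt-/-. In spleen they had 2293 and 5579 CPM in Asbt+/+ and 37083 and 1090 in Asbt-/-. Their part in the ferritin values was not tested.

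Nqo1, a quinone reductase often used as a readout of NRF2, was close to the limit of detection. It had 5 counts in shMdr1 small intestine Asbt+/+, 3 in shMdr1 spleen Asbt+/+, 3 in shMdr1 spleen Asbt-/- and 0 in the other 5 libraries. All 11 counts were thus in shMdr1 libraries, but shMdr1 small intestine Asbt-/- also had 0. The 5 counts came from the pair in which Abcb1a was not lower with shMdr1. No ratio can be formed against the 0 counts of the shCD8 group. With a floor of 3 counts in their place, the level with shMdr1 was 3.88 times the floor, a bound and not a measured ratio. That value leaves out the counting error of the 11 counts, and there was no test across conditions. Srxn1, sulfiredoxin, repairs overoxidised peroxiredoxins. It had 8 counts in each small intestine library of Asbt+/+ hosts, 3 and 0 in shCD8 and shMdr1 of Asbt-/- small intestine, and, in spleen, 4 and 3 in the Asbt+/+ and 2 and 0 in the Asbt-/- libraries. The CPM ranges of the hosts did not overlap, but only through the library totals. The lowest Asbt+/+ value, 1.33 CPM in shMdr1 spleen, and the highest Asbt-/- value, 1.26 CPM in shCD8 small intestine, were both 3 counts. Of the tested genes, which leave out Srxn1, 1.37% had such ranges in that direction. The Asbt+/+ libraries held 23 counts in all and the Asbt-/- libraries 5, a ratio of 4.91 (1.83 to 16.5, exact interval for counting error only). Of these counts, 16 against 3 came from small intestine, and in spleen alone 7 against 2 gave a ratio of 3.13 (0.596 to 30.9). Host-cell markers moved with the host too. In small intestine the epithelial sum was 269 and 575 CPM in the Asbt+/+ libraries and 52.2 and 57.1 in the Asbt-/- libraries, and the neutrophil sum was 116 and 179 against 42.9 and 9.76 CPM. In spleen the epithelial sum was 52.9 and 188 against 8.09 and 0 CPM, and the neutrophil sum 7334 and 8084 against 854 and 2687 CPM. The macrophage and monocyte sum overlapped between hosts in small intestine. There it was 610 and 354 CPM in Asbt+/+ (shCD8 and shMdr1) and 739.9 and 364 in Asbt-/-. In spleen it was 406 and 494 against 287 and 159 CPM. Its highest value was in shCD8 small intestine Asbt-/-, the library that held 21 counts of Hmox1. The part of these host cells in the host differences of Srxn1, Gclm and Hmox1 was not tested.

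Between hosts, no member passed, and neither did any of the 10000 genes in edgeR (0%; 271 had an unadjusted p under 0.05, and DESeq2's Wald test called 6). All 8 tested members had a fitted log2 value above 0, Asbt-/- minus Asbt+/+, from 0.03 for Fth1 to 1.65 for Gclm, with a median of 0.23 beside 0.11 over all tested genes. The pairs did not bear this out for each gene. None was higher in Asbt-/- in 4 of 4 pairs, against 5.63% of tested genes. Fth1 was lower in Asbt-/- in 4 of 4 pairs by total-count CPM (7.32% of tested genes) but in 1 of 4 by TMM-scaled CPM. Hmox1 was lower in 3 of 4 by either scaling, against the sign of its fitted value. Sqstm1 (0.17 ± 0.25), Ftl1 (0.09 ± 0.25) and Prdx1 (0.05 ± 0.25) had values within their error.

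The host difference that was largest in size was that of Gclm in small intestine. The Asbt+/+ libraries held 2 counts and the Asbt-/- libraries 68, a pooled ratio of 27.1 (7.23 to 229). In spleen the Gclm counts were 50 and 67 in Asbt+/+ and 51 and 27 in Asbt-/- (shCD8 and shMdr1), with no such gap. The fit within small intestine gave a log2 difference of 4.52 ± 1.35 (adjusted p = 0.624, edgeR, 0% of genes called), and the test of the difference between tissues gave 4.79 ± 1.69 (adjusted p = 0.937). Hmox1 had 1 count in Asbt+/+ and 21 in Asbt-/- small intestine, a ratio of 16.8 (2.69 to 693), and all 21 were in the shCD8 library. Of the 2 small intestine Asbt+/+ libraries, shCD8 had counts for few genes, and Abcb1a was not lower in shMdr1. Without these 2 libraries, the fitted host value was -0.34 for Gclm and -0.88 for Hmox1. That fit takes its host values from spleen alone, so it says nothing of the host difference in small intestine. The fit within spleen on all libraries gave -0.28 for Gclm and -0.87 for Hmox1. For Gclm the additive value from all libraries was 1.65 ± 1.19 (adjusted p = 0.996, edgeR).

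No member showed a hairpin difference that depended on the host. The hairpin difference in Asbt-/- minus that in Asbt+/+ was -4.36 ± 3.62 for Hmox1, -1.65 ± 2.03 for Gclm, -0.98 ± 1.02 for Gclc and 0.46 ± 0.52 for Ftl1. All 8 had an adjusted p of 1 in edgeR, where 0% of genes were called.

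**Figure D3:**
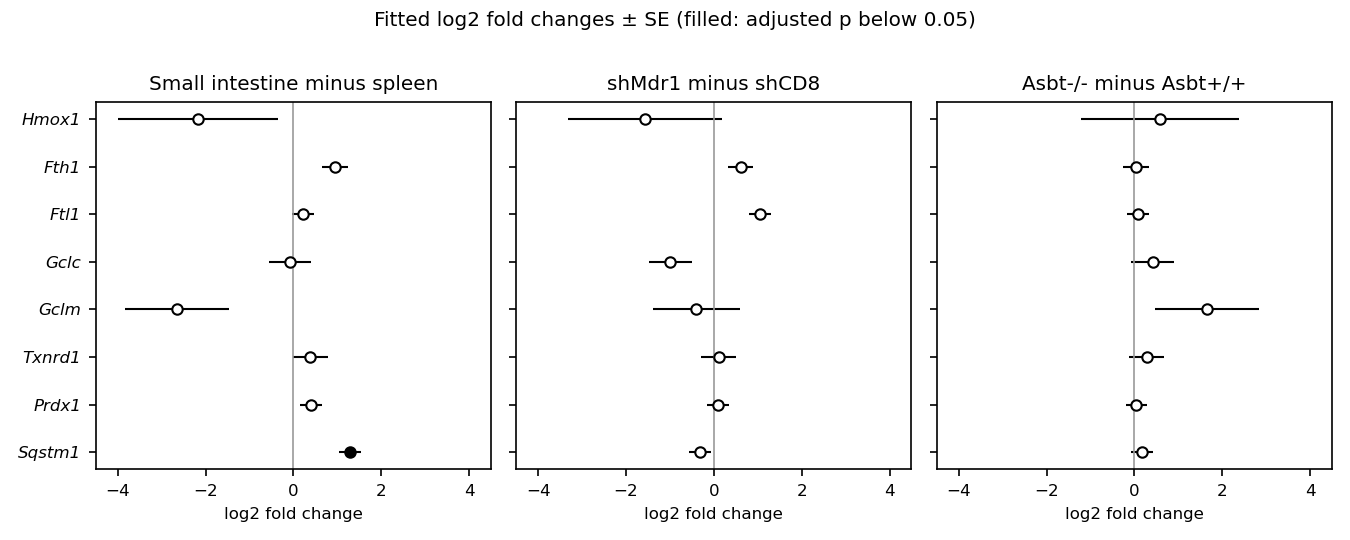
Fitted log2 fold changes with their standard errors (horizontal bars) for the 8 tested genes, for small intestine minus spleen, shMdr1 minus shCD8 and Asbt-/- minus Asbt+/+, each from 8 libraries. The filled symbol, Sqstm1 between tissues at 1.29, is the 1 value with an adjusted p below 0.05.

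The members did not move as a block across the 8 libraries. Pearson correlations of log2 CPM, given as descriptions over libraries that share tissue, hairpin or host, ran from -0.81 to 0.90. Txnrd1 and Prdx1, enzymes of the thioredoxin cycle, had the highest value (0.90). Gclm, which holds the antioxidant response element core in its promoter window as they do, had 0.05 with Txnrd1 and -0.23 with Prdx1. Hmox1 and Gclm stood at 0.83, and the ferritin chains Ftl1 and Fth1 at 0.70. Gclc and Ftl1 had -0.81, and Hmox1 and Fth1 -0.80. Glutathione synthesis did not form a pair, since Gclc and Gclm had 0.31.

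**Figure D4:**
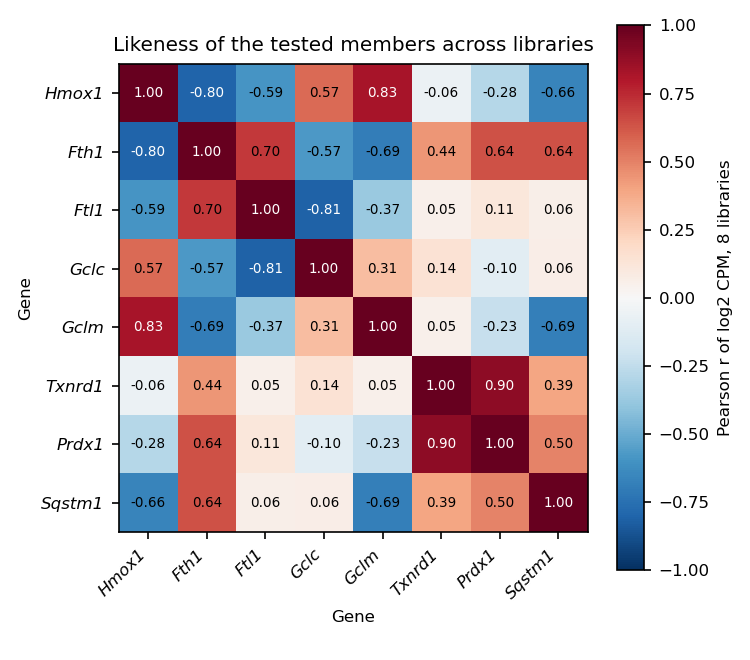
Pearson correlation of log2 CPM (colour and number) over the 8 libraries for each pair of the 8 tested genes, which stand on both axes. The highest value is that of Txnrd1 with Prdx1 (0.90) and the lowest that of Gclc with Ftl1 (-0.81).

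The genes most like single members were named by the same measure over the 8 libraries. For Sqstm1 they were Pnpla8 (0.98), Tex2 (0.97), Got1 (0.97) and Icos (0.96). For Ftl1 they were Zmat5 (0.96), Mon2 (0.93), Plpp1 (0.93) and Gpx4 (0.92), the last of which reduces lipid peroxides with glutathione. For Fth1 they were Psma3 (0.97), Ddit3 (0.97), Myl12a (0.96) and Tgfb1 (0.95), and for Hmox1 they were Kantr, Rad1, Trim30d and Zfp707 (0.96 to 0.98). These values describe the 8 libraries only.

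Among the regulators of the pathway, Nfe2l2 stood at 8.27 CPM in shCD8 Asbt+/+, 16.0 in shMdr1 Asbt+/+, 34.1 in shCD8 Asbt-/- and 29.3 in shMdr1 Asbt-/- of small intestine, and at 9.37, 12.9, 5.71 and 14.8 CPM in spleen. The highest values were thus those of the Asbt-/- small intestine libraries, with overlap between tissues (log2 0.95 ± 0.70). Keap1 ran from 16.6 to 32.4 CPM over all libraries (-0.39 ± 0.52). In all, 9 of 9 regulators were tested, and none passed in the tissue, hairpin or host comparison. The smallest p was that of Cul3, the ubiquitin ligase scaffold that KEAP1 recruits, between tissues (-0.69 ± 0.29, adjusted p = 0.540, edgeR), and between hosts that of Bach1 (-2.37 ± 1.10, adjusted p = 0.996).

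None of the 64 tested genes of the 7 lists around the pathway, out of 77 listed, passed in any of these 3 comparisons. In the tissue comparison 35 lay above 0 and 29 below, with a median log2 value of 0.09 beside -0.17 over all tested genes. Prdx6, a peroxiredoxin that reduces phospholipid hydroperoxides, came closest. It stood at 323 to 415 CPM in small intestine and 157 to 185 in spleen, without overlap (1.13 ± 0.22, adjusted p = 0.0563, edgeR). Of the glutathione list 11 of 15 were tested, and 7 lay above 0. Slc7a11 of that list was not tested. It had 0 counts in the Asbt+/+ libraries of both tissues, and 33 and 11 in shCD8 and shMdr1 Asbt-/- small intestine. Slc3a2, the partner chain of the cystine transporter, had 0.81 ± 0.21 (adjusted p = 0.185), Gsto1, a glutathione transferase, 1.88 ± 0.52 (0.230) and Ggt1, which breaks down extracellular glutathione, -1.83 ± 0.62 (0.384). Txnip, the inhibitor of thioredoxin, had -1.40 ± 0.42 (adjusted p = 0.287, edgeR). It was lower in all small intestine libraries (14.8 to 131 CPM) than in spleen (138 to 219 CPM). Of the NADPH list, the enzymes that supply reducing power, 5 of 6 were tested, and the values with the smallest p lay between -0.24 and 0.40 (G6pdx and Tkt). In the iron and heme list 13 of 16 were tested with 5 above 0, and Pcbp2, an iron chaperone that loads ferritin, had 0.61 ± 0.28. Conjugation and export genes had 1 of 6 above 0, Osgin1 (1.91 ± 1.20), and the autophagy adaptors related to Sqstm1 had 5 of 8, with Map1lc3b at 0.25 ± 0.29.

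Between hairpins, 39 of the 64 lay above 0 and 25 below, with a median of 0.18 beside 0.09 over all tested genes. Gpx4 had the smallest p. It stood at 180 and 212 CPM in shMdr1 small intestine of Asbt+/+ and Asbt-/- hosts and at 104 and 77.0 in shCD8, and in spleen at 124 and 127 with shMdr1 and 104 and 68.6 with shCD8. Its ranges did not overlap, and its log2 difference was 0.99 ± 0.28 (adjusted p = 0.999, edgeR). Next in order of p were Mgst3, a microsomal glutathione transferase (2.00 ± 0.79), Slc3a2 (0.54 ± 0.21), Gstp1 (1.01 ± 0.44) and Prdx5, a peroxiredoxin (0.73 ± 0.32). Map1lc3b, the LC3 protein of the autophagosome (0.63 ± 0.29), followed. After it came Glrx, lower with shMdr1 (-0.63 ± 0.30), and Blvrb, a biliverdin reductase abundant in erythroid cells (1.92 ± 0.91). The peroxiredoxin gene Prdx3 was then lower with shMdr1 (-0.79 ± 0.39). Blvrb reached 69.2 CPM in shMdr1 spleen Asbt-/-, the library with the highest erythroid sum, and 1.24 to 17.3 CPM elsewhere. Between hosts 38 of the 64 lay above 0 with a median of 0.11, as over all tested genes (0.11), and the smallest p were those of Txnip (1.35 ± 0.42) and Ggt1 (1.89 ± 0.60), both at an adjusted p of 0.996 in edgeR.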

How the data were processed

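The authors deposited raw counts of reads per gene for 8 libraries. Their processing, per the submitters' processing notes, involved build mm9 with TopHat, HTSeq and DESeq2, with roles, versions, annotation and strand setting not given in the sources used here. Per the labels' protocols, cDNA was made with a SMART-Seq v4 kit and libraries with a NEBNext kit, without molecular identifiers.

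The count columns were matched to the libraries by their labels, and hairpins follow the titles of the samples, since the retrovirus field says shMdr1 throughout. Genes were kept with edgeR's filterByExpr (edgeR 4.0.16, R 4.3.3), scaled with TMM factors and tested with edgeR's quasi-likelihood test, Benjamini-Hochberg adjusted over all tested genes at 0.05. The tissue, hairpin and host effects came from an additive fit (4 residual degrees of freedom). Effects within a tissue came from a nested fit (2), and the host-dependent hairpin effect from a fit with that interaction (3). With no replicate of a combination, the 4 libraries of a level served as replicates. The labels do not say which came from separate animals, so p-values reflect only the spread among the libraries, part of which may be technical. The standard error is the absolute log2 fold change over the square root of F. Correlations used log2 CPM with a prior count of 2. Intervals for counts are 95% exact.

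Alternatives were DESeq2 1.42.0 size factors and Wald test, limma-voom 3.58.1, no filter, no covariates, a matched-pair block, leaving out libraries, and leaving out hemoglobin, mitochondrial and Rn18s-rs5 counts. The fits were tested on simulated data. The genes to be named were all members, plus the 3 genes of each pathway list with the smallest p in each additive comparison, plus the 4 most alike to each of 4 members. Not all of those pathway genes are printed. Keap1, Slc7a11 and, between hairpins, Gstp1 and Glrx were named outside this rule. The members, lists and tests were chosen with earlier results of these data known. Sequences are from RefSeq and GENCODE on GRCm38, not the build of the counts, and no gene coordinates were joined to the counts.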

Additional observations from a re-analysis of the deposited data

Results flagged for a closer look

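In 2 of 20 groups of 4 libraries (10 genes in 2 tissues), 1 library stood far from the others of its tissue. The rule compares the gap to the nearest library with the range of the 4. Its nominal rate of 1 group in 20 assumes normally distributed values and does not hold for counts near 0. A gene with counts in only 1 library of the 4 always meets it. The libraries of a group also differ in hairpin and host. Hmox1 had 8.84 CPM in shCD8 small intestine Asbt-/-, where the other small intestine libraries had 0 to 0.59 CPM. Nqo1 had 2.97 CPM in shMdr1 small intestine Asbt+/+, where the others had 0. These rest on 21 and 5 counts.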

How the results depend on the processing

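Over 33 results on single genes and 510 alternatives, 464 kept direction and side of the threshold, 12 lost the call, 9 gained one and 25 changed sign. Between tissues, the number of members called was 1, and 0 with DESeq2 size factors, without hemoglobin, mitochondrial and Rn18s-rs5 counts, with the matched-pair block, without both small intestine Asbt+/+ libraries and in the fits without 1 library (0 to 0). It was 2 with DESeq2's Wald test (Sqstm1 and Fth1). For Sqstm1 the adjusted p was 0.057, 0.0561, 0.0543 and 0.198 in the first 4 of these. Over all genes the tissue comparison called 62, against 257 with DESeq2's Wald test, 165 without a filter and 11 to 137 without 1 library.

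Within small intestine, 0 to 2 members were called for the hairpin when 1 library was left out, and 2 (Ftl1 and Gclc) without both Asbt+/+ libraries. For the host, and for the tissue difference of the host effect, 0 to 2 were called (Gclm and Hmox1). Where a small intestine library was left out, the lone library was assumed to vary like the others and all residual spread came from spleen. Such fits called 8.57 to 42.5% of all genes for the effects within small intestine. Without both Asbt+/+ libraries the host effect in small intestine and its tissue difference could not be fitted.

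Without both small intestine Asbt+/+ libraries, the tissue value of Ftl1 was -0.079 and the host values of Hmox1, Gclm and Prdx1 were -0.88, -0.34 and -0.19. Those host values come from spleen alone. The tissue value of Gclc was 0.053 without covariates, and the host value of Hmox1 was -0.082 with the matched-pair block. Without 1 library, ranges crossed 0 for the tissue value of Gclc (-0.37 to 0.19), for the hairpin values of Gclm (-1.39 to 0.71), Hmox1 (-2.25 to 0.23), Prdx1 (-0.022 to 0.25) and Txnrd1 (-0.081 to 0.28), for the host values of Hmox1 (-1.16 to 1.17), Fth1 (-0.10 to 0.18), Ftl1 (-0.0897 to 0.27) and Prdx1 (-0.082 to 0.21), and for the tissue difference in the hairpin value of Gclc (-1.55 to 0.0017). The cause was not tested. Summing Ftl1, Fth1 and Prdx1 with their copies was not run, since the table used here has no such rows. Depth limits Hmox1, Nqo1, Srxn1 and, in small intestine of Asbt+/+ hosts, Gclm.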
